A study of Mus musculus with 6 samples.

Results

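Long noncoding genes known for a nuclear RNA or for the microRNA they carry were followed in mouse splenocytes with and without a working Top3b gene. The genes were Malat1, Neat1, Tug1, Kcnq1ot1, Pvt1, Dleu2 and Mir155hg. They were taken by symbol from a list of names, and 7 of 7 were among the 56413 genes of the deposited count table. RNA came from fresh total splenocytes in 3 samples of wild-type mice (WT) and 3 of Top3b knockouts (Top3b-KO), and was sequenced as ribosomal-RNA-depleted total RNA. The labels name the groups by genotype alone and give no strain, age, sex, treatment or design of the knockout allele. Whether the 3 libraries of a genotype stem from different mice is not stated either, so p-values here speak of the spread among these libraries, which may be technical. Top3b encodes topoisomerase III-beta, an enzyme that acts on DNA and RNA, and the study asked how its loss bears on R-loops, immune regulation and tumour formation.

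Long noncoding RNAs of this kind are known for acting as RNA or for being cut into smaller RNAs. Malat1 RNA gathers in nuclear speckles, which are stores of splicing factors, and Neat1 RNA is the scaffold of paraspeckles, another kind of nuclear body. Kcnq1ot1 is an antisense RNA that silences neighbouring imprinted genes in cis, Pvt1 lies beside the Myc oncogene, and Dleu2 and Mir155hg are the host transcripts of microRNAs with known parts in B cell survival and lymphocyte activation.

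The microRNAs show what the last 2 genes can make. By position in the gene models of GRCm38, Dleu2 was the host of Mir15a and Mir16-1 on chromosome 14, and Mir155hg of Mir155 on chromosome 16. None of the other 5 genes held a microRNA of the RefSeq table on its own strand. The mature 5′ arms are printed from RefSeq (GRCm38.p6), 5′ to 3′, with the seed (bases 2 to 8, the part that pairs with a target) in capitals, to compare the seeds. The Mir15b arm is added because the protein-coding gene Smc4 on chromosome 3 carries a paralogous cluster.
miR-15a-5p (Dleu2, chr14:61632075-61632096, minus strand): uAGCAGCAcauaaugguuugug
miR-16-5p (Dleu2, chr14:61631936-61631957, minus strand): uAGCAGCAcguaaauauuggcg
miR-15b-5p (Smc4, chr3:69009775-69009796, plus strand): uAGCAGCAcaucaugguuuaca
miR-155-5p (Mir155hg, chr16:84714143-84714165, plus strand): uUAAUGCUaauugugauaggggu

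The Dleu2 microRNAs shared 1 seed, AGCAGCA, with the Smc4 cluster, and miR-16-5p was identical from both hosts. That seed occurred in 10 of 1679 mature mouse microRNA names in the table, while the seed of miR-155-5p occurred in 1. The labels describe no step for small RNA, so the counts below are those of host transcripts and not of mature microRNAs. The microRNA genes themselves were counted at 0 in every library for Mir155 and Mir16-1, and at 1 to 3 for Mir15a. For counting error only, a count of 0 allows a level of up to 0.119 to 0.303 CPM, depending on the library. CPM are counts scaled to a common library size with TMM factors. In GENCODE M21 Mir155 shares 65 exon bases with Mir155hg on the same strand, and Mir16-1 shares 13 with Dleu2. How reads from those bases were assigned is not known, so a count of 0 does not bound the level of these microRNA genes.

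Total counts per library ran from 9941014 to 25473404, with the smallest in Top3b-KO replicate 3. Top3b itself was at 90.8 ± 4.05 CPM in the WT libraries against 49.7 ± 1.66 CPM in the knockouts (SD, n = 3), lower in 3 of 3 knockout libraries and still clearly counted in each, and a count per gene cannot place the remaining reads inside or outside the deleted part. Clec16a was the other of the 2 genes past the threshold among all genes, at 49.3 ± 2.26 CPM in the WT libraries against 69.3 ± 3.04 CPM in the knockouts (SD, n = 3). Markers of the labelled cells were present, with the 7 B cell markers summing to between 5469 and 6002 CPM and the 6 T cell markers to between 990 and 1145 CPM. Liver markers (Alb, Apoa1 and Ttr) summed to at most 0.523 CPM and neuron markers to at most 0.916 CPM in any library. The 4 pancreas markers were low but counted in every library, at a sum of 2.52 to 4.51 CPM, and their source was not tested. The summed B cell markers were lower in Top3b-KO (5469 to 5618 CPM) than in WT (5711 to 6002 CPM) with no overlap. So were the 4 dendritic cell markers (124 to 141 against 142 to 159 CPM), and 0 genes of either list passed the adjusted threshold. Among all tested genes 11% had no overlap between the genotypes. The summed T cell markers overlapped, at 990 to 1138 CPM in WT and 1079 to 1145 CPM in Top3b-KO. Log2 fold changes lay above 0 for 0 of 7 B cell, 0 of 4 dendritic cell, 0 of 6 erythroid and 6 of 6 T cell markers. They did so for 0 of 4 plasma cell, 1 of 5 macrophage and monocyte and 2 of 5 neutrophil markers. Of the stromal and endothelial markers, 1 of 2 tested lay above 0. Over all tested genes 49.1% lay above 0. The summed neutrophil markers ranged from 589 to 1042 CPM in WT and from 417 to 1407 CPM in Top3b-KO, and the erythroid markers from 998 to 1733 and from 801 to 1173 CPM. The part of cell makeup in the values below was not tested.

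None of the 7 genes passed the test between the genotypes. With edgeR's quasi-likelihood test and Benjamini-Hochberg adjustment over all tested genes, 0 of 7 had an adjusted p below 0.05, beside 2 of 18716 tested genes (0.0107%). At an unadjusted p under 0.05 the count was also 0 of 7, beside 5.52% of all tested genes, and 0 of 7 had libraries of one genotype wholly above the other, beside 11% of all (5.63% with every knockout below WT and 5.39% with every knockout above). DESeq2 likewise called 0 of 7, beside 6 of 18716 tested genes. With it 0 of 7 had an unadjusted p under 0.05, beside 3.33% of all tested genes. All 7 passed the filter on low counts. The median log2 fold change was 0.061 over the 7 genes and -0.0029 over all tested genes, and 4 of 7 values lay above 0. In bulk RNA, fewer cells of a type and less RNA per cell cannot be told apart, so a level here is an average over all splenocytes.

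**Figure D1:**
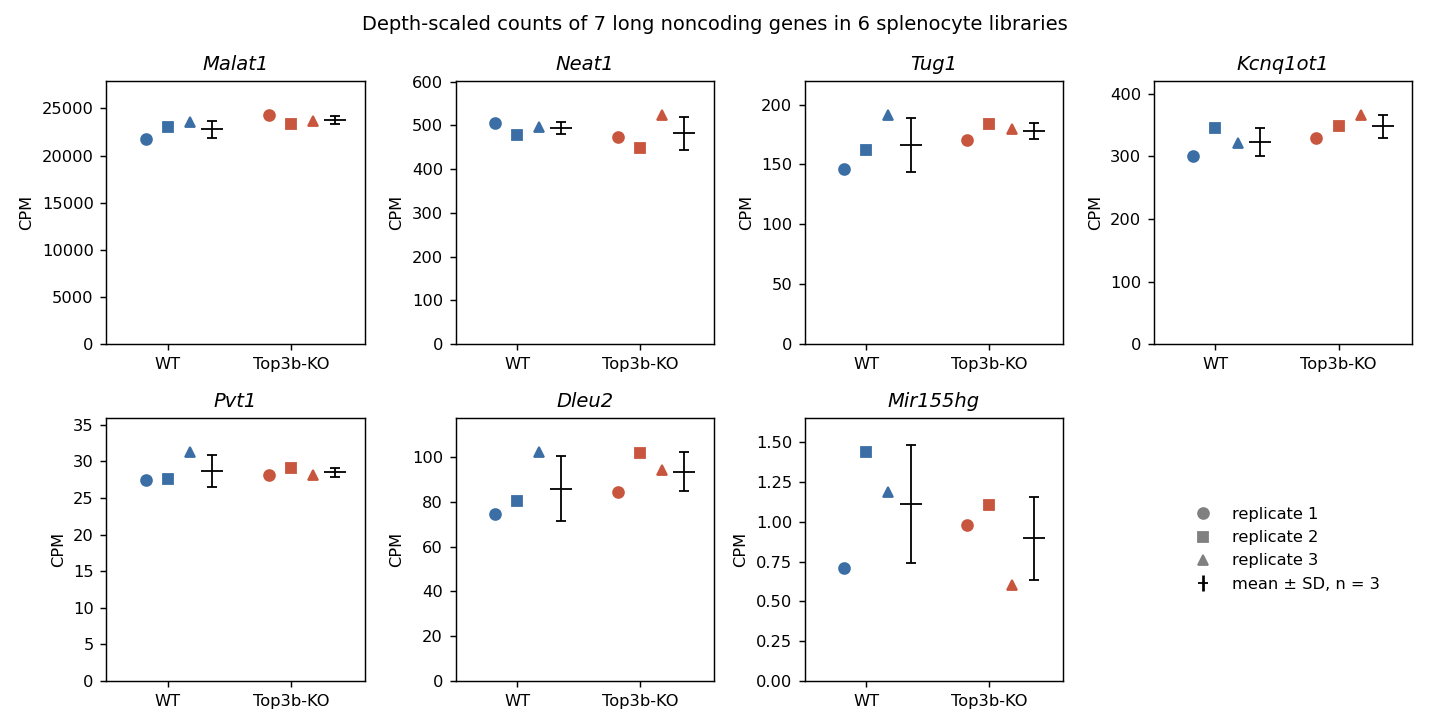
CPM of each gene (vertical axis, from 0) in the 3 WT and 3 Top3b-KO libraries, with the marker shape giving the replicate number and the black bar the mean ± SD of 3 libraries. The genotypes overlap in all 7 panels, from Malat1 at 21784 CPM or more to Mir155hg near 1 CPM.

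Malat1, the speckle RNA, had the most counts of all 56413 genes in each of the 6 libraries. It was at 21784, 22988 and 23613 CPM in WT replicates 1, 2 and 3 and at 24271, 23382 and 23706 CPM in the Top3b-KO replicates. The 3 knockout values all lay above the WT mean, but the lowest of them lay below WT replicate 3. The log2 fold change was 0.061 (SE 0.070, 95% interval -0.086 to 0.21), with an adjusted p of 0.96 by edgeR. That interval covers ratios of Top3b-KO to WT from 0.942 to 1.16. Malat1 took 2.29 ± 0.0939% of all counts in WT and 2.37 ± 0.0505% in Top3b-KO (SD, n = 3). The two-sided exact permutation p for that share was 0.3, where 3 against 3 libraries cannot go below 0.1.

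Neat1, the paraspeckle scaffold, lies beside Malat1 on chromosome 19. It was at 507, 478 and 496 CPM in WT and at 474, 450 and 523 CPM in Top3b-KO, so the lowest and the highest library were both knockouts. Its log2 fold change was -0.035 (SE 0.069, 95% interval -0.18 to 0.11), with an adjusted p of 0.97 by edgeR. Its sign turned to 0.018 without Top3b-KO replicate 2. There were 46.2 ± 2.80 Malat1 counts for each Neat1 count in WT and 49.5 ± 3.65 in Top3b-KO (SD, n = 3), with an exact permutation p of 0.3. The file counts Neat1 as a single gene, so its short and long isoforms are not separated.

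The protein partners of both RNAs are listed as the paraspeckle proteins and as the speckle and Malat1 processing genes. Of 20 paraspeckle protein genes, all tested, 0 passed the adjusted threshold, and 18 had a log2 fold change above 0 with a median of 0.057. Hnrnpk and Hnrnpa1, which encode RNA-binding proteins and were the highest of this list in CPM, gave log2 fold changes of 0.043 and 0.10, and Rbmx had the smallest p of the list (log2 fold change 0.19, adjusted p 0.83 by edgeR). Of 18 speckle and Malat1 processing genes, 0 passed, and 16 lay above 0 with a median of 0.051. Son, a scaffold of speckles, was at 1081 ± 31.0 CPM in the WT libraries against 1101 ± 8.65 CPM in the knockouts (SD, n = 3). Over all tested genes 49.1% of fold changes lay above 0. Of the genes near Malat1 and Neat1, Frmd8, Slc25a45 and Ltbp3 had log2 fold changes of -0.080, 0.074 and -0.37.

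**Figure D2:**
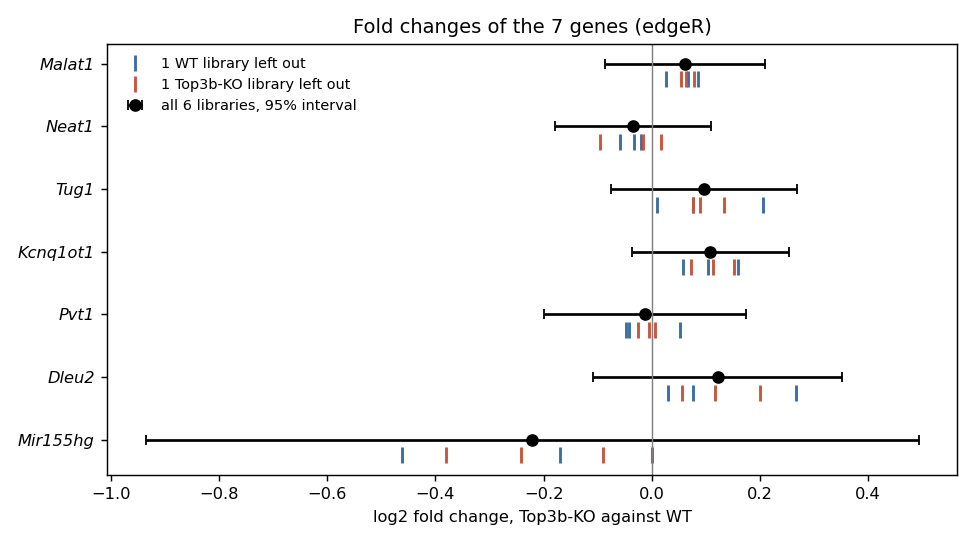
Log2 fold change of each gene, Top3b-KO against WT (horizontal axis), with the 95% interval of edgeR's fit to all 6 libraries in black, and below it the value with 1 WT library (blue) or 1 Top3b-KO library (red) left out. All 7 intervals include 0, and the widest is that of Mir155hg, from -0.94 to 0.49.

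Kcnq1ot1, the imprinted antisense RNA of chromosome 7, was at 301, 345 and 322 CPM in WT and at 330, 348 and 366 CPM in Top3b-KO. The highest value was in Top3b-KO replicate 3 and the lowest in WT replicate 1, with the genotypes overlapping between. Its log2 fold change was 0.11 (SE 0.069, 95% interval -0.036 to 0.25), with an adjusted p of 0.91 by edgeR. Its unadjusted p of 0.13 was the smallest of the 7 genes. The coding gene that it overlaps, Kcnq1, a potassium channel gene, was nearly silent in splenocytes, with 32 counts in all libraries together against 35581 for Kcnq1ot1. Kcnq1 was counted at 0 in Top3b-KO replicate 3 and at 2 to 11 in the others, and did not pass the filter.

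Of the listed neighbours of all 7 genes, 19 of 25 were tested, 0 passed the adjusted threshold and 1 was lower at an unadjusted p under 0.05, where 3.69% of all tested genes were. None of those in the imprinted cluster around Kcnq1ot1 passed. Cdkn1c, an inhibitor of the cell cycle that this RNA represses on the paternal chromosome, was at 1.67 ± 0.0359 CPM in the WT libraries against 1.64 ± 0.112 CPM in the knockouts (SD, n = 3). Tssc4 had a log2 fold change of -0.22 (adjusted p 0.91 by edgeR), with all 3 knockout libraries below WT, and Cd81, a surface tetraspanin of B cells, of -0.086. Counts per gene do not separate the parental alleles, so imprinting itself was not measured.

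Tug1, a broadly expressed long noncoding RNA of chromosome 11, varied more within WT than between genotypes. It was at 146, 162 and 191 CPM in WT and at 170, 184 and 180 CPM in Top3b-KO. Both the lowest and the highest value belonged to WT. Between genotypes the log2 fold change was 0.096 (SE 0.082, 95% interval -0.076 to 0.27), with an adjusted p of 0.94 by edgeR. Leaving out WT replicate 3 moved it to 0.21 (unadjusted p 0.0036, adjusted p 0.16). Without that library 13.2% of all tested genes and 2 of the 7, Tug1 and Dleu2, had an unadjusted p under 0.05. Without WT replicate 1 the log2 fold change of Tug1 was 0.0090. The divergent neighbour Morc2a, a chromatin ATPase gene, shares 483 exon bases with Tug1 on the opposite strand in GENCODE M21 and was at 109 ± 5.18 CPM in the WT libraries against 112 ± 2.25 CPM in the knockouts (SD, n = 3). The sources used here do not give the strand setting of the counting, so reads from that stretch cannot be assigned with certainty to either gene.

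Pvt1, the neighbour of Myc on chromosome 15, varied least between libraries after Malat1, by 1.14-fold from the lowest to the highest. It was at 27.4, 27.5 and 31.3 CPM in WT and at 28.2, 29.2 and 28.2 CPM in Top3b-KO, with all 3 knockout values inside the WT range. This gave a log2 fold change of -0.012 (SE 0.089, 95% interval -0.20 to 0.17), with an adjusted p of 0.99 by edgeR. The sign was not stable, at 0.052 when WT replicate 3 was left out and at 0.0053 when Top3b-KO replicate 1 was. Myc, the transcription factor gene beside it, was at 81.7 ± 4.99 CPM in the WT libraries against 77.7 ± 6.09 CPM in the knockouts (SD, n = 3), with a log2 fold change of -0.067. There were 0.354 ± 0.0502 Pvt1 counts for each Myc count in WT and 0.368 ± 0.0305 in Top3b-KO (SD, n = 3), with an exact permutation p of 0.8.

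Dleu2, the host of the miR-15a and miR-16-1 cluster shown above, had the largest positive fold change of the 7 genes and no call. It was at 74.8, 80.4 and 102 CPM in WT and at 84.4, 102 and 94.1 CPM in Top3b-KO. As for Tug1, the lowest and the highest library were both WT. The log2 fold change was 0.12 (SE 0.11, 95% interval -0.11 to 0.35), with an adjusted p of 0.94 by edgeR. It was 0.27 without WT replicate 3 (unadjusted p 0.0028, adjusted p 0.15) and 0.029 without WT replicate 1. Several genes overlap the span of Dleu2 in GENCODE M21, among them Gm37472 at 42.4 ± 2.23 CPM in the WT libraries against 42.1 ± 2.09 CPM in the knockouts (SD, n = 3), on the same strand with no shared exon base.

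Coding genes lie opposite Dleu2. Trim13, a ubiquitin ligase gene, was at 5.74 ± 0.760 CPM in the WT libraries against 4.71 ± 0.125 CPM in the knockouts (SD, n = 3), with a log2 fold change of -0.29, an adjusted p of 0.91 by edgeR and all 3 knockout libraries below WT. Kcnrg was at 10.5 ± 1.59 and 10.2 ± 1.63 CPM. The number of Dleu2 counts for each Trim13 count was 13.5, 15.8 and 15.5 in the WT libraries against 18.4, 21.1 and 19.8 in the knockouts. These ratios did not overlap, which with 3 against 3 libraries gives the smallest exact permutation p of 0.1, or 0.6 adjusted over the 6 ratios computed. Trim13 counts ran from 47 to 122, so its counting error is part of that ratio. Dleu2 counts for each Kcnrg count overlapped, at 7.32 to 8.63 in WT and 7.97 to 9.95 in the knockouts, with an exact permutation p of 0.3 over 3 against 3 libraries.

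Smc4, a condensin gene and host of the paralogous miR-15 and miR-16 cluster, was at 365 ± 29.6 CPM in the WT libraries against 397 ± 13.4 CPM in the knockouts (SD, n = 3). Its log2 fold change was 0.12 (adjusted p 0.91 by edgeR). There were 4.30 ± 0.358 Smc4 counts for each Dleu2 count in WT and 4.27 ± 0.387 in Top3b-KO (SD, n = 3), and the exact permutation p was 1. Among 14 listed targets of miR-15 and miR-16, 0 passed, with a median of 0.016. Bcl2, the survival gene and best known of these targets, was at 241 ± 20.1 CPM in the WT libraries against 269 ± 14.8 CPM in the knockouts, with a log2 fold change of 0.15 and an adjusted p of 0.89 by edgeR. The abundant targets Mcl1 and Ccnd2 had log2 fold changes of -0.029 and 0.036.

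Mir155hg, the host of miR-155, had few reads in these fresh splenocytes. There were 11, 22 and 19 counts in the WT libraries against 24, 28 and 6 in the knockouts, which is 0.709, 1.44 and 1.19 CPM against 0.981, 1.11 and 0.606 CPM. The genotypes overlapped and the highest library exceeded the lowest by 2.38-fold. The log2 fold change was -0.22 (SE 0.34, 95% interval -0.94 to 0.49), with an adjusted p of 0.97 by edgeR, and it ran from -0.46 without WT replicate 1 to -2.06e-05 without WT replicate 2. The interval covers ratios from 0.523 to 1.41.

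Activation genes tied to the induction of Mir155hg in lymphocytes were described from a list of 21 genes. None of the 21 passed, the median log2 fold change was -0.036, and at an unadjusted p under 0.05 there were 1 higher and 3 lower, beside 1.83% higher and 3.69% lower over all tested genes. Jund, an AP-1 subunit, was at 92.8 ± 5.92 CPM in the WT libraries against 76.1 ± 7.06 CPM in the knockouts (SD, n = 3), with a log2 fold change of -0.29 and an adjusted p of 0.55 by edgeR. Junb, another AP-1 subunit, had -0.20, and Cd69, an early activation marker, had 0.20 (adjusted p 0.84 and 0.83 by edgeR). Without WT replicate 3 these passed, Junb at -0.29 (adjusted p 0.036 by edgeR) and Cd69 at 0.29 (adjusted p 0.046). Leaving out that library raised the calls among all genes, with 32 of 19161 past the adjusted threshold and 13.2% at an unadjusted p under 0.05. Nfkb1, a subunit of the factor NF-kB, had a log2 fold change of -0.016. Among 16 targets of miR-155, 0 passed, with a median of -0.010. Inpp5d, the phosphatase SHIP1, was at 340 ± 30.1 and 327 ± 17.3 CPM, and Cebpb and Spi1, myeloid transcription factors, had log2 fold changes of -0.27 and -0.15 (adjusted p 0.86 and 0.91 by edgeR).

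The machinery that cuts microRNAs from such hosts also gave 0 calls among 16 genes tested, with a median of 0.054. Of these, 14 lay above 0, beside 49.1% of all tested genes. That was not particular to this list, as 18 of 20 paraspeckle and 16 of 18 speckle and Malat1 processing genes also did. Ddx5, a helicase cofactor of Drosha, was at 2317 ± 202 CPM in the WT libraries against 2478 ± 124 CPM in the knockouts (SD, n = 3). Tnrc6a and Tnrc6b, scaffolds of the silencing complex, had log2 fold changes of 0.13 and 0.12 (adjusted p 0.90 for the former by edgeR).

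**Figure D3:**
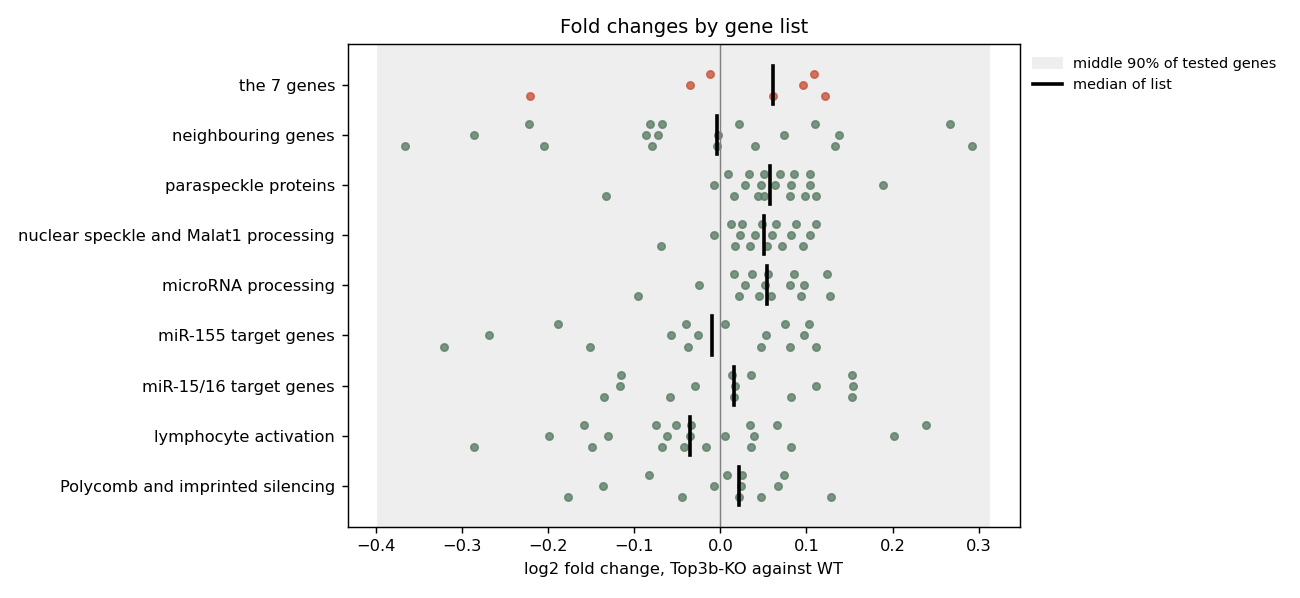
Log2 fold change, Top3b-KO against WT (horizontal axis), of each tested gene in 9 lists (rows), with the list median as a black bar and the middle 90% of all tested genes, -0.40 to 0.31, shaded. All points lie inside the shaded range, and the medians lie between -0.036 and 0.061.

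To set the 7 genes beside each other, levels were taken per kilobase of annotated exon. Malat1 was at 3264 ± 133 CPM per kilobase in WT and 3406 ± 64.5 in Top3b-KO (SD, n = 3), exceeded among 17354 tested genes with a length by 1 gene, Rn7sk. Neat1 followed at 23.8 ± 0.691 and 23.2 ± 1.80 CPM per kilobase and Tug1 at 17.1 ± 2.32 and 18.3 ± 0.716. Their ranges over the 6 libraries, 21.6 to 25.2 and 15.0 to 19.6, did not overlap. Dleu2 was at 7.57 ± 1.28 and 8.24 ± 0.768 CPM per kilobase. Pvt1 (4.11 ± 0.313 and 4.07 ± 0.0830) and Kcnq1ot1 (3.46 ± 0.238 and 3.74 ± 0.192) were closest, with Pvt1 above Kcnq1ot1 in 6 of 6 libraries by 1.02-fold to 1.29-fold. Mir155hg was lowest at 0.777 ± 0.259 and 0.626 ± 0.182.

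The order depends on the gene model for the spliced genes. With the longest annotated transcript in place of all exons, Tug1 (25.6 CPM per kilobase) stood above Neat1 (23.5), and Dleu2 reached 21.9, while the 5 other genes, Dleu2 among them, kept their places. The 322.5 CPM of Kcnq1ot1 in WT spread over a single exon of 93092 bases. Malat1, Neat1 and Kcnq1ot1 each form 1 unbroken exon block in GENCODE M21, while Pvt1 has 21 blocks over a span of 340111 bases and Dleu2 has 11 over 79535.

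**Figure D4:**
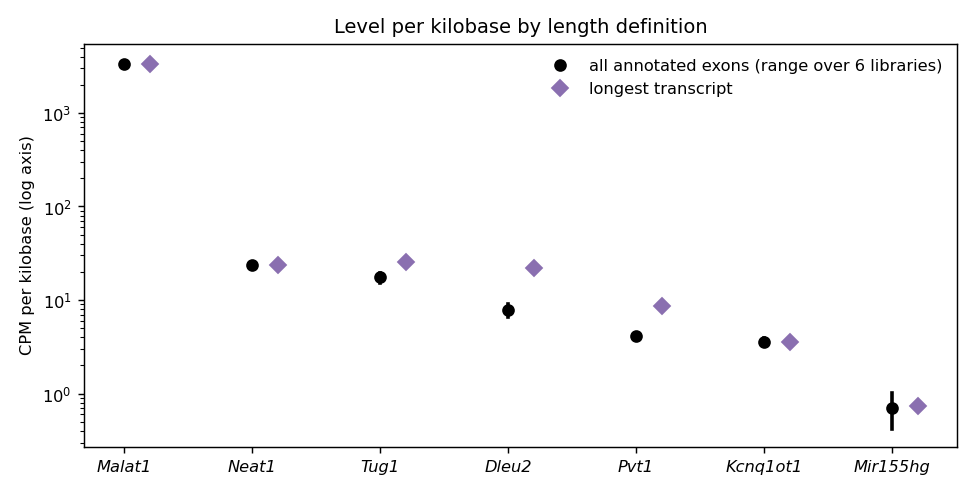
Mean CPM per kilobase of each gene over 6 libraries on a log axis, with the length taken as all annotated exons (black, bar from the lowest to the highest library) or as the longest transcript (purple diamond). Malat1 lies at 3335 and the other 6 genes below 30 by either length.

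The longest transcripts of all 7 genes were poorer in G and C than the typical transcript. Their GC content ran from 34.5% for Dleu2 and 37.9% for Tug1 to 47.3% for Neat1, against a median of 49.0% over 17597 genes with at least 60 counts. Of those genes 0.517% had a lower GC content than Dleu2 and 3.30% a lower one than Tug1. Neat1 and Pvt1 were nearer the median, with 40.5% and 32.9% of those genes lower.

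Tug1 and Dleu2 moved together from library to library, apart from genotype, and Pvt1 less firmly so. In CPM they placed the 6 libraries in 1 common order, from WT replicate 1 through WT replicate 2 and Top3b-KO replicates 1, 3 and 2 to WT replicate 3. Over 6 libraries Tug1 and Dleu2 correlated with Pearson's r of 0.97 (exact permutation p 0.0014, adjusted over 21 relations 0.029) and Spearman's rho of 1 (exact permutation p 0.0028, the smallest it can give, adjusted 0.019). Without the libraries farthest out in Tug1, WT replicates 1 and 3, r was 0.98, and with genotype means removed it was 0.96. For Pvt1 with Tug1 r was 0.80 (exact permutation p 0.057, adjusted 0.40, and 0.88 without 2 libraries), and with Dleu2 r was 0.82 (exact permutation p 0.024, adjusted 0.25, and 0.86 without 2 libraries). Spearman's rho was 1 for both, at the same adjusted exact permutation p of 0.019. Top3b-KO replicates 1 and 3 were nearly tied in Pvt1, at 28.160 and 28.163 CPM, and by share of counts their order turned. On that scale rho of Pvt1 with Tug1 and with Dleu2 was 0.94 (adjusted exact permutation p 0.12 for each), and that of Tug1 with Dleu2 was still 1, with an adjusted exact permutation p of 0.058. These relations were chosen after values were seen, which the adjustment does not cover, and their points share library and depth.

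The share of counts in the 37 mitochondrially encoded genes took the order seen in CPM. It was 0.838, 0.949 and 1.21% in WT replicates 1, 2 and 3 and 0.979, 1.12 and 0.999% in the Top3b-KO replicates. Against that share r was 0.93 for Tug1, 0.94 for Dleu2 and 0.94 for Pvt1 (exact permutation p 0.0069, 0.0014 and 0.0014, adjusted over 7 relations 0.016, 0.0049 and 0.0049), and rho was 1 for all 3 (exact permutation p 0.0028, adjusted 0.0065). By share of counts rho was 1 for Tug1 and Dleu2 and 0.94 for Pvt1 (adjusted exact permutation p 0.0097, 0.0097 and 0.039). Without WT replicates 1 and 3, r was 0.85, 0.92 and 0.97. For Malat1, Neat1, Kcnq1ot1 and Mir155hg r was 0.57, -0.30, 0.27 and 0.42 and rho 0.49, -0.20, 0.31 and 0.20, each with an adjusted exact permutation p of at least 0.39 over the 6 libraries. In CPM the order was found in 116 of 18716 tested genes (0.620%). The relations with the mitochondrial share were also chosen after values were seen. What share of the spread in Tug1, Pvt1 and Dleu2 goes with the mitochondrial share was not tested. WT replicate 1 was also the lowest library for 5 of the 7 genes, all but Neat1 and Mir155hg, and for 19.8% of all tested genes.

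**Figure D5:**
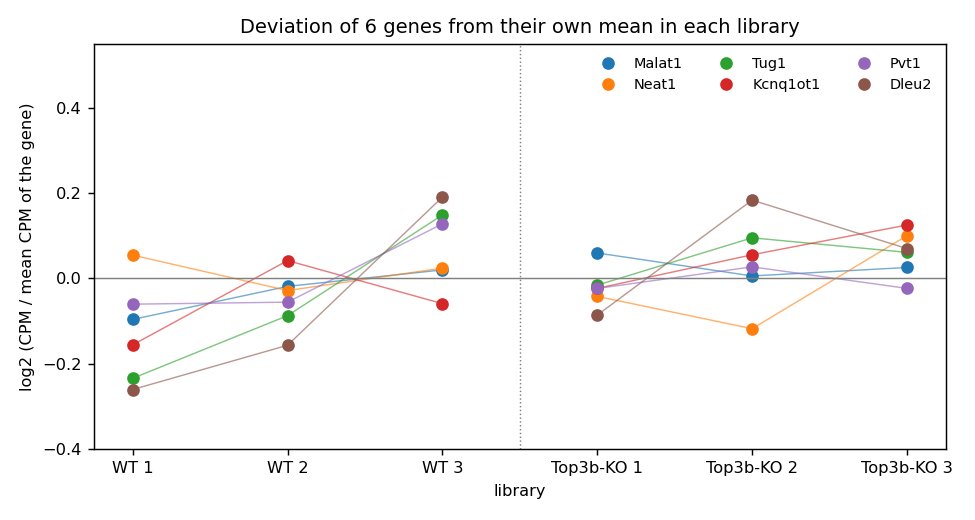
Log2 ratio of CPM to the mean over 6 libraries (vertical axis) for the 6 genes other than Mir155hg in each library (horizontal axis). Lines join points of 1 gene within a genotype only to guide the eye, and Dleu2, Tug1 and Pvt1 are low in WT replicates 1 and 2 and highest in WT replicate 3.

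The genes most like each member in log2 CPM over the 6 libraries were drawn from 9095 candidates at 10 CPM or more, or 9096 for Mir155hg, and are given as a description. For Tug1 they included Top2b, a type II topoisomerase, and Fam204a, at r of 0.99 each. For Dleu2 they were Rsl24d1, Tox and Trmt10a (r 0.996, 0.996 and 0.991), and for Pvt1 Tmem26, Skap2 and Ptpn4 (0.99 each). Malat1 was closest to Mrps30, Ankrd13c and Tmem186 (0.97 each) and Neat1 to Fam219b, Stimate and Sik1 (0.99, 0.99 and 0.95). Kcnq1ot1 was closest to Fmo5, Sfi1 and Ttc17 (0.99, 0.98 and 0.98), and Mir155hg to Sec61g, Eps8 and Bcl2a1d (0.99, 0.99 and 0.97). These values carry no test, and the points share library and depth.

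The spread between libraries was also taken as edgeR's biological coefficient of variation. This is an estimate beyond counting error, pooled over both genotypes and drawn towards that of genes of like level. It is not the SD of the CPM within a genotype, which for Tug1 in WT was 22.6 around a mean of 166. The coefficient was 6.38% for Malat1, 6.63% for Neat1 and 6.65% for Kcnq1ot1. It was 7.54% for Pvt1, 7.61% for Tug1, 9.46% for Dleu2 and 16.4% for Mir155hg. Among tested genes within 2-fold of the level of each, the median was 6.53% beside Neat1, 6.51% beside Tug1, 6.49% beside Kcnq1ot1, 7.93% beside Pvt1, 6.81% beside Dleu2 and 15.5% beside Mir155hg. No tested gene lay within 2-fold of Malat1.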

How the data were processed

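The authors deposited 1 table of expected counts, with a row per gene symbol. Per the submitters' processing notes STAR and mm39 were used. The sources used here do not give the counting tool, its strand setting or the annotation, and the protocol describes more than 1 library kit. None of the 7 genes had a fractional value. Counts were rounded, and 22655 of 56413 genes had no count.

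Genes were kept by filterByExpr (18716) and tested with edgeR 4.0.16 in R 4.3.3 by its two-sided quasi-likelihood test (TMM scaling, robust fit, genotype as sole term), adjusted by Benjamini-Hochberg at a threshold of 0.05. SEs and 95% intervals come from the F statistic. CPM are scaled by TMM factors. DESeq2 1.42.0 and limma-voom 3.58.1 were alternatives. Shares, ratios and correlations were tested by exact permutation. Of 6 libraries, none was left out.

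The members and lists were chosen with earlier results of these data known. Named genes were the members, genes past the threshold, tested neighbours, the 2 most abundant and 2 lowest-p members of each list, and the 3 genes of highest correlation (predicted symbols left out). A few genes chosen this way are not reported here. Any other gene, the relations, ratios and GC content were chosen after values were seen. One listed microRNA gene, Mir5114, lies in none of the 7 genes and was left out. Lengths, overlaps and GC content came from GENCODE M21 (GRCm38), whose symbols gave a length for 92.7% of tested genes. The microRNA positions are on GRCm38.p6, not on mm39.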

Additional observations from a re-analysis of the deposited data

How the results depend on the processing

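Under 16 alternatives to the test (scaling, library sizes without the 7 genes, filter, tool, dispersion, replicate block and each library left out) 0 of the 7 genes passed, and the smallest adjusted p was 0.15, for Dleu2. At an unadjusted p under 0.05 there were 2 of 7 without WT replicate 3 and 0 of 7 under the others. Malat1, Tug1, Kcnq1ot1 and Dleu2 stayed above 0 and Mir155hg below 0 in all 16. Leaving out a library moved the log2 fold changes to between 0.027 and 0.086 for Malat1, -0.096 and 0.018 for Neat1, 0.0090 and 0.21 for Tug1, 0.058 and 0.16 for Kcnq1ot1, -0.047 and 0.052 for Pvt1, 0.029 and 0.27 for Dleu2, and -0.46 and -2.06e-05 for Mir155hg. Signs turned for Neat1 without Top3b-KO replicate 2 (0.018) and for Pvt1 without WT replicate 3 (0.052) or Top3b-KO replicate 1 (0.0053). The difference in the share of counts (Top3b-KO minus WT, in percentage points) turned to 0.000137 for Neat1 without Top3b-KO replicate 2 and to 8.02e-05 for Pvt1 without WT replicate 3. With a library left out it ran from -0.00360 to 0.000137 for Neat1 and from -0.000114 to 8.02e-05 for Pvt1. The cause was not tested. Over all genes, 2 passed, with 44 under no filter, 6 with DESeq2, 1 with robust=FALSE and 1 to 32 with a library left out (32 without WT replicate 3, 9 without Top3b-KO replicate 1). Of the listed genes 0 passed, and 0 to 2 with a library left out. Same-numbered libraries correlated in their deviations at 0.363, -0.0991 and -0.0226, a best match with the same number did not hold for every library, and the replicate block gave 41 genes and 0 of the 7. By share of counts in place of CPM, an alternative chosen after seeing the data, rho among Tug1, Pvt1 and Dleu2 no longer passed after adjustment (0.94, 0.94 and 1), while rho of each with the mitochondrial share did. With the longest transcript 5 of 7 genes kept their place in the order of levels. Depth limits mainly Mir155hg, at 6 to 28 counts.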

Other observations

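Of 10 other regulatory long noncoding genes tested, 0 passed edgeR's adjusted threshold, and the median log2 fold change was -0.034. At an unadjusted p under 0.05, 1 was higher, beside 1.83% of all tested genes. Xist, the RNA that coats the inactive X chromosome, was at 1906 ± 269 CPM in the WT libraries against 1867 ± 37.4 CPM in the knockouts (SD, n = 3). Norad, which binds Pumilio proteins, was at 195 ± 11.6 and 216 ± 2.11 CPM with a log2 fold change of 0.15 (adjusted p 0.88 by edgeR), higher in 3 of 3 knockout libraries. Airn, an imprinted antisense RNA like Kcnq1ot1, had a log2 fold change of 0.31 (adjusted p 0.91 by edgeR), and Oip5os1 of 0.033. Of 13 genes of Polycomb and imprinted silencing, 0 passed, with a median of 0.021. Hnrnpu, a nuclear matrix RNA-binding protein, had a log2 fold change of 0.13, and Ehmt2, a histone H3 lysine methyltransferase, of -0.18.

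Among other microRNA genes and hosts, 0 of 12 tested passed. Mir181a-1hg was at 0.747 ± 0.215 CPM in the WT libraries against 1.34 ± 0.237 CPM in the knockouts (SD, n = 3), with a log2 fold change of 0.79 (adjusted p 0.86 by edgeR). Mir6236, picked after its values were seen, had the largest fold change of all tested genes, 2.60 on the log2 scale (SE 1.14, adjusted p 0.91 by edgeR), at 5.51 ± 3.09 CPM in the WT libraries against 35.5 ± 31.9 CPM in the knockouts (SD, n = 3).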
